A study of Arabidopsis thaliana with 6 samples.

Results

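Lectins are proteins that bind sugars, and plants carry several unrelated families of them. The legume lectin domain, the mannose-binding domain of the G-type lectins (also called the B-lectin or S-locus type) and the jacalin domain occur in soluble proteins. The legume and G-type domains also form the outer part of receptor kinases, which sit in the plasma membrane and signal into the cell. Many plant lectin genes are known to respond to pathogens or to the hormone salicylic acid.

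Transcripts of 4 lectin genes were followed in Arabidopsis thaliana mutants of CAMTA3. This transcription factor binds calmodulin, the calcium sensor, and is known to hold down defence genes that depend on salicylic acid. AT5G03350 and AT3G16530 carry a legume lectin domain, AT5G18470 is a mannose-binding lectin, and AT1G11330 is a receptor kinase with a lectin domain. They are 4 of 13286 genes with a named probe set on the array. The 4 were chosen by their measured log2 differences between the camta3 mutants and wild type, which were positive. That comparison is therefore given for them as a description, without p-values. Where the 4 are counted among called genes, the count follows from that choice and is not evidence about them. Each gene had 1 probe set, annotated to that gene alone. Gene positions are not given, because the sources used here name no genome build for the array values.

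Plants were 3 weeks old, and total RNA was hybridised to Affymetrix arrays. The 3 groups were the mutant allele camta3-1, the mutant allele camta3-2 and the wild type, each with 2 arrays that the labels call biological replicates. No treatment, accession or tissue is named in the labels, and neither is the kind of lesion in each allele, so what all groups share beyond age is not known here. CAMTA3 itself was not analysed here, and the labels of the mutants therefore have no check from the mutated gene. Levels are given per probe set on the log2 scale, where 1 unit is a doubling, and 22746 probe sets were tested.

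Medians of the arrays ran from 6.18 to 6.26 (log2). Pairs of arrays correlated at 0.992 to 0.995 across probe sets if they were of one group, and at 0.986 to 0.994 if they were not. Control probe sets at the 3' end exceeded those at the 5' end by 1.192 and 1.198 in camta3-2 and 1.263 to 1.326 on the other arrays (log2) for ubiquitin. For actin the excess was 3.55 and 3.51 in camta3-2 and 3.39 to 3.52 elsewhere, and for GAPDH 0.29 and 0.14 against 0.17 to 0.46, with overlap in both. Of the tissue marker lists, 3 of 6 root genes (EXPA7, EXPA18 and PRX44) and none of the 12 green shoot and 5 flower and seed genes had a named probe set. In the annotation used, 8730 probe sets name no gene, so whether the array measures the other marker genes is not known here. The 3 root genes had values of 3.64 to 4.68 on all arrays and differed between mutants and wild type by -0.12 to -0.07 on the log2 scale, with none passing.

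Of the soluble lectins, AT5G03350 encodes a legume lectin-like protein known to be induced by salicylic acid. Its log2 values were 10.60 and 10.99 in wild type, 12.52 and 12.13 in camta3-1, and 12.78 and 12.51 in camta3-2 (replicates 1 and 2 in each case). The mutant arrays all lay above both wild-type arrays, and the gap between the lowest mutant and the highest wild-type array was 1.14 on the log2 scale, or 2.21-fold. Group means were 10.79 ± 0.28 in wild type, 12.32 ± 0.27 in camta3-1 and 12.65 ± 0.19 in camta3-2 (SD, n = 2 each). The mean of both alleles was 1.69 above wild type (standard error 0.16 in the fit), which is 3.23-fold, with 2.89-fold in camta3-1 and 3.62-fold in camta3-2.

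AT3G16530, the other legume lectin gene, has a transcript known to respond to chitin, a component of fungal walls. Its log2 values were 7.81 and 7.83 in wild type, 10.04 and 9.12 in camta3-1, and 9.59 and 9.08 in camta3-2. The wild-type arrays were nearly equal and all mutant arrays lay at least 1.25 above them, while the mutant arrays themselves were spread. Means were 7.82 ± 0.01 in wild type, 9.58 ± 0.65 in camta3-1 and 9.33 ± 0.36 in camta3-2 (SD, n = 2 each). The mean of both alleles was 1.64 above wild type on the log2 scale (standard error 0.25), or 3.11-fold. The camta3-1 difference, 1.76, depended on its replicates, being 1.30 without replicate 1 and 2.22 without replicate 2.

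The mannose-binding lectin gene AT5G18470 had the widest difference of the 4 and the widest spread. Its log2 values were 3.89 and 4.88 in wild type, 7.91 and 6.52 in camta3-1, and 6.82 and 6.50 in camta3-2. The groups of mutants and wild type did not overlap, but the gap of 1.62 between the nearest arrays was far smaller than the full range of 4.02. Means were 4.38 ± 0.70 in wild type, 7.22 ± 0.98 in camta3-1 and 6.66 ± 0.22 in camta3-2 (SD, n = 2 each). The mean of both alleles was 2.56 above wild type (standard error 0.40), or 5.88-fold, with 7.12-fold in camta3-1 and 4.86-fold in camta3-2. Both wild-type values lie below 5.33, the 40th percentile of probe set means, so the wild-type signal was dim and how far it stood above background is not known here. The camta3-1 difference of 2.83 was 2.14 without its replicate 1 and 3.53 without its replicate 2. Leaving out wild type replicate 1 or 2 moved the log2 difference to 2.06 or 3.05.

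The receptor kinase gene AT1G11330 had the narrowest difference and the smallest spread of the 4. Its log2 values were 6.32 and 6.70 in wild type, 8.09 and 7.92 in camta3-1, and 8.08 and 7.78 in camta3-2. All mutant arrays lay at least 1.08 above both wild-type arrays, and the alleles overlapped each other. Means were 6.51 ± 0.27 in wild type, 8.00 ± 0.12 in camta3-1 and 7.93 ± 0.21 in camta3-2 (SD, n = 2 each). The mean of both alleles was 1.46 above wild type (standard error 0.14), or 2.74-fold, with 2.81-fold in camta3-1 and 2.68-fold in camta3-2. In a whole plant or tissue, more RNA per cell and more cells that express a gene cannot be told apart.

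**Figure D1:**
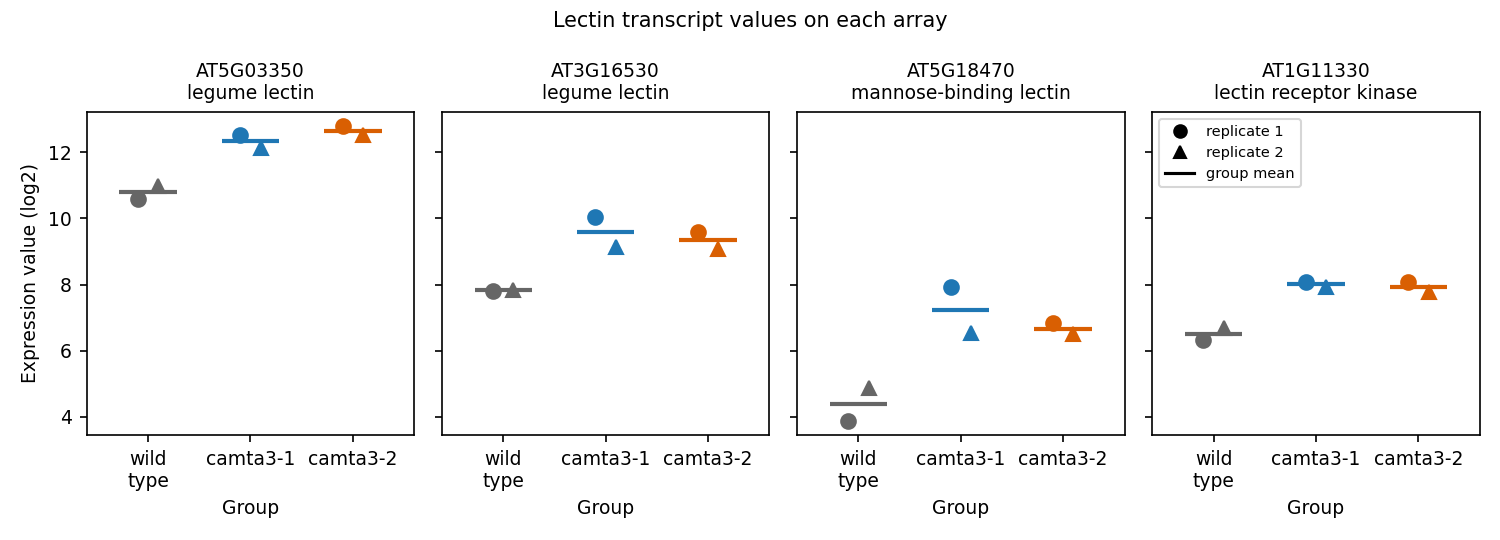
Log2 expression values of the 4 lectin genes on each array (vertical axis) by group (horizontal axis), with circles for replicate 1, triangles for replicate 2 and lines for the group means. In each panel all 4 mutant arrays sit above both wild-type arrays, and in both alleles replicate 1 sits above replicate 2. Heights are compared within a panel only, since probe sets differ in their response.

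For 4 of 4 genes the lowest mutant array exceeded the highest wild-type array, a pattern shown by 7.89% of all probe sets. All 4 genes were among the probe sets called higher for the mean of both alleles (limma, adjusted p under 0.05), as were 1.15% of all probe sets. In camta3-1 alone 4 of 4 were called higher, against 0.805% of all probe sets, and in camta3-2 alone 2 of 4, AT5G03350 and AT1G11330, against 0.655%. These counts follow from how the genes were picked and are not evidence about them. The comparisons of the alleles with wild type share the same wild-type arrays.

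The arrays within a group were also ordered alike across the 4 genes. Replicate 1 lay above replicate 2 in both alleles for 4 of 4 genes, and 34.7% of all probe sets had that order. The log2 excess of replicate 1 was largest in camta3-1 for AT5G18470 (1.39) and AT3G16530 (0.92), and it was 0.17 to 0.39 for the other two genes. In camta3-2 it ran from 0.27 to 0.51 over the 4 genes. In wild type the order was opposite, with replicate 1 below replicate 2 by 0.99 in AT5G18470, 0.39 in AT5G03350, 0.38 in AT1G11330 and 0.02 in AT3G16530. The spread within groups exceeded that of most probe sets. The residual SD was 0.21 for AT1G11330, 0.25 for AT5G03350, 0.43 for AT3G16530 and 0.71 for AT5G18470, against a median of 0.13 over all probe sets. It was larger than in 82.0% of probe sets for AT1G11330 and 99.6% for AT5G18470.

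The difference between the alleles was tested with limma over all probe sets. Its size comes from the mutant arrays alone, while its standard error, interval and p also draw on the spread between the wild-type arrays. None of the 4 genes passed, with 0.0044% of all probe sets called. None of the 4 reached an unadjusted p under 0.05 either, as 6.34% of all probe sets did. AT5G03350 was 0.32 higher in camta3-2 than in camta3-1 on the log2 scale, with a 95% interval from -0.12 to 0.76 (limma adjusted p = 0.817). AT3G16530 was at -0.25 (interval -0.93 to 0.43, limma adjusted p = 0.915) and AT5G18470 at -0.55 (interval -1.63 to 0.53, limma adjusted p = 0.867). For AT1G11330 the difference was -0.07, and its interval from -0.46 to 0.32 (limma adjusted p = 0.973) was the narrowest. As ratios of camta3-2 to camta3-1, that interval runs from 0.726 to 1.25 for AT1G11330, while for AT5G18470 it runs from 0.323 to 1.44. The sign of the difference turned in AT3G16530, AT5G18470 and AT1G11330 when camta3-1 replicate 1 was left out, at 0.21, 0.14 and 0.01. It also turned in AT3G16530 (0.0057) and AT1G11330 (0.0766) when camta3-2 replicate 2 was left out.

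**Figure D2:**
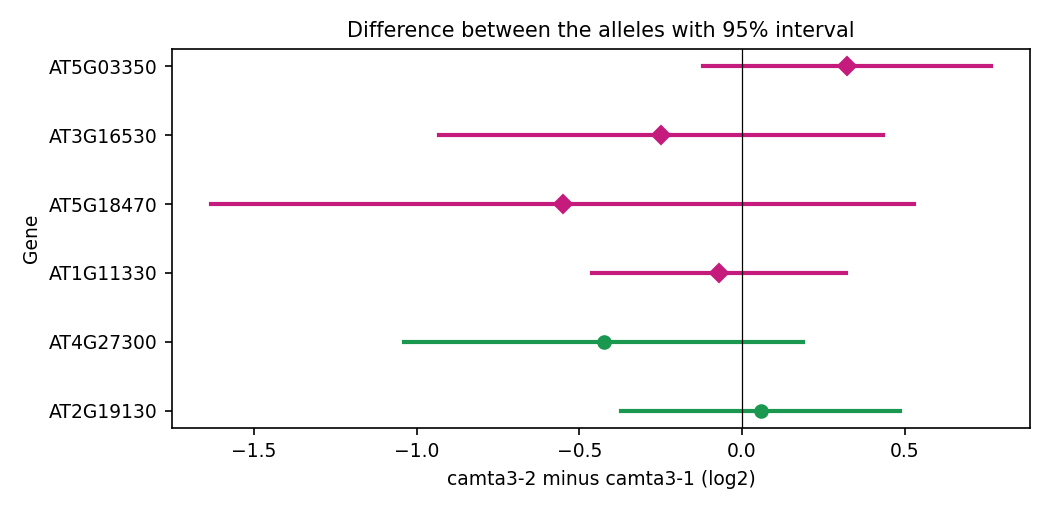
Difference camta3-2 minus camta3-1 on the log2 scale (horizontal axis) for the 4 lectin genes (diamonds) and for AT4G27300 and AT2G19130 (circles), with lines for the 95% intervals of the limma fit. All 6 intervals contain 0, and that of AT5G18470 is the widest, from -1.63 to 0.53.

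The 4 genes were set among other lectin genes, from a list of 147 loci that was recalled and not taken from a curated table. Of these, 58 had a named probe set, which were 5 legume, 21 jacalin-related and 31 G-type lectins and 1 C-type lectin kinase. The legume lectin receptor kinases of the list were not analysed here. Without the 4 genes, 54 remained, a remainder from which 4 genes with a difference had been taken out. Of the 54, 2 were called higher for the mean of both alleles and none lower (limma adjusted p under 0.05, 3.70%), while 1.41% of all probe sets passed. Log2 differences were positive in 18 of the 54 and negative in 36 (66.7%), against 62.6% negative over all probe sets. All mutant arrays lay below both wild-type arrays in 16 of the 54 (15.8% of all probe sets) and above both in 7 (7.89%). Their median log2 difference was -0.07, against -0.05 over all probe sets.

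Both genes that rose are G-type lectin receptor kinases, as AT1G11330 is. AT4G27300 had log2 values of 6.08 and 6.41 in wild type, 8.17 and 7.49 in camta3-1, and 7.67 and 7.13 in camta3-2. Its mean over both alleles was 1.37 above wild type (standard error 0.23, limma adjusted p = 0.0371), or 2.59-fold, with no overlap between mutant and wild-type arrays. AT2G19130 had 6.89 and 6.91 in wild type, 8.02 and 7.58 in camta3-1, and 8.05 and 7.66 in camta3-2. It rose by 0.93 (standard error 0.16, limma adjusted p = 0.0422), or 1.90-fold, again without overlap. Separation of this kind, with the mutants higher, was seen in 7 of the 54 genes and in 7.89% of all probe sets. It therefore does not mark out these 2 genes, the only ones of the 7 that passed. In camta3-1 alone AT4G27300 passed (1.59, limma adjusted p = 0.0436) and AT2G19130 did not (0.90, limma adjusted p = 0.086). In camta3-2 alone neither passed, at 1.16 and 0.96 (limma adjusted p = 0.147 and 0.0895), and 6 of the 54 genes were at an unadjusted p under 0.05, as were 11.2% of all probe sets. The difference between alleles did not pass for AT4G27300 (-0.42, interval -1.04 to 0.19) or AT2G19130 (0.06, interval -0.37 to 0.49).

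Both calls were lost in some fits with 1 array left out, which leaves 1 group with a single array that is assumed to vary like the others. The log2 differences then ran from 1.20 to 1.54 for AT4G27300 and from 0.82 to 1.04 for AT2G19130, and calls over all probe sets fell from 320 to 5 without wild type replicate 1 and to 60 without wild type replicate 2. AT4G27300 no longer passed without camta3-2 replicate 1 (limma adjusted p = 0.0792), wild type replicate 1 (0.379) or wild type replicate 2 (0.204). AT2G19130 no longer passed without replicate 1 of camta3-1 (limma adjusted p = 0.058), camta3-2 (0.0814) or wild type (0.366), or without wild type replicate 2 (0.297). Over the 12 alternatives the limma adjusted p ran from 0.0105 to 0.439 for AT4G27300 and from 0.0158 to 0.43 for AT2G19130.

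G-type genes beside those described had values nearer to 0. AT1G11330 lies in a run of listed G-type genes from AT1G11280 to AT1G11410, and the 3 other measured genes of that run had log2 differences of -0.21 to -0.02, with none passing (limma, 0 at an unadjusted p under 0.05). Its immediate neighbour AT1G11340, also a G-type receptor kinase, had values of 4.13 and 3.98 in wild type and 3.91 to 4.14 in the mutants. AT4G27290, beside AT4G27300, was at -0.18. In the longest run, from AT1G61360 to AT1G61610, 14 measured genes had log2 differences of -0.21 to 0.36, none passed, and 1 was at an unadjusted p under 0.05, against 13.4% of all probe sets. Only 2 of the 14 had a mean above the 40th percentile of probe sets, so for most of them a low signal limits what can be seen. That run holds SD1-29, known as LORE, the receptor for bacterial 3-hydroxy fatty acids, which was at 0.08 (limma adjusted p = 0.866) and is named after its value was seen. Differences between neighbours were not tested, and cross-hybridisation between close copies was not tested either.

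Over the 29 G-type genes other than AT5G18470 and AT1G11330, 12 log2 differences were positive and 17 negative, with a median of -0.04. Over all probe sets 37.4% were positive and the median was -0.05. After cyclic loess between arrays 18 of the 29 were positive with a median of 0.02, while over all probe sets 51.1% were positive with a median of 0.00413, so the sign of the G-type median moved with that of all probe sets. Of the 31 measured G-type genes, 11 had a mean above the 40th percentile of probe sets, and the others were dim.

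Of the 3 other measured legume lectin genes none passed (limma, 1 at an unadjusted p under 0.05, against 13.4% of all probe sets). The legume lectin gene AT1G53080 was at 0.26 (standard error 0.10, limma adjusted p = 0.301), with values of 3.97 and 4.03 in wild type and 4.16 to 4.36 in the mutants. The C-type lectin kinase AT1G52310 was at 0.08 (limma adjusted p = 0.815).

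None of the 21 measured jacalin-related lectins passed (limma, 4 at an unadjusted p under 0.05, as were 13.4% of all probe sets), and 18 of the 21 log2 differences were negative, as were 62.6% over all probe sets. The median was -0.13, against -0.05 over all probe sets, and after cyclic loess it was -0.08, with 17 of the 21 negative against 48.9% of all probe sets. In 9 of the 21 genes the highest mutant array was below the lowest wild-type array, a pattern of 15.8% of all probe sets. Only 6 of the 21 had a mean above the 40th percentile of probe sets, so most were dim. JAL23 had the largest difference of these, with 7.78 and 7.48 in wild type, 5.87 and 6.59 in camta3-1, and 6.96 and 6.59 in camta3-2. Its log2 difference was -1.13 (standard error 0.21, limma adjusted p = 0.0582), and it passed under other settings, among them the filter at the 40th percentile (0.0358) and a trended and robust prior (0.0301). Over the 12 alternatives its adjusted p in limma ran from 0.0101 to 0.456. AT1G19715 was at -0.42 (limma adjusted p = 0.238) and AT5G46000 at -0.24 (limma adjusted p = 0.349).

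**Figure D3:**
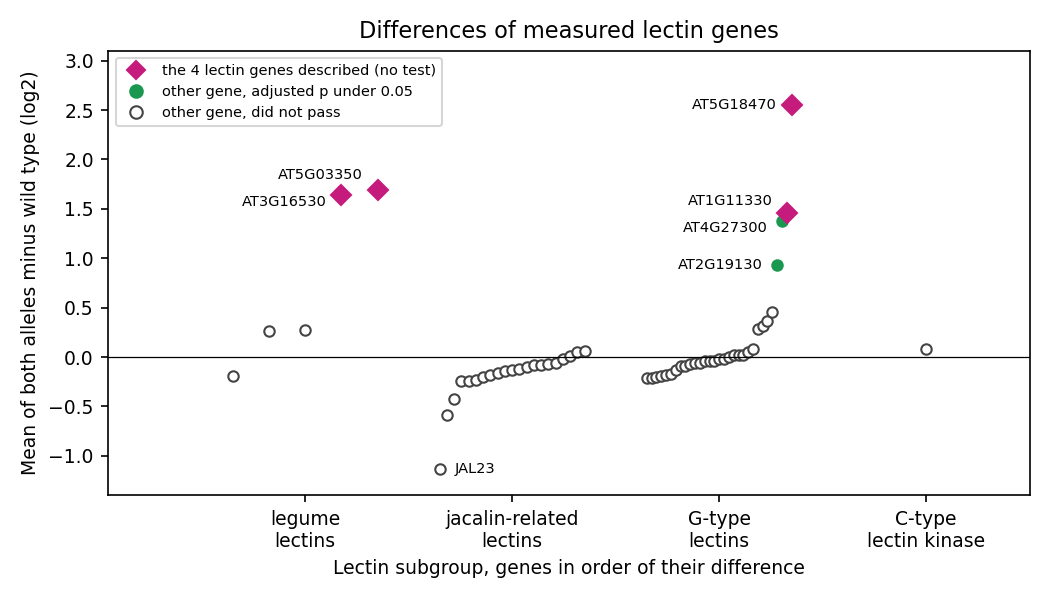
Log2 difference between the mean of both camta3 alleles and wild type (vertical axis) for the 58 measured lectin genes by subgroup (horizontal axis), each subgroup in ascending order. Diamonds are the 4 genes described, filled circles are other genes that passed (limma adjusted p under 0.05) and open circles did not pass. Most genes lie near 0, with JAL23 lowest at -1.13 and AT5G18470 highest at 2.56.

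Loci beside the 4 genes on the chromosome were compared with them through the order of loci in the reference gene table. Of the 3 loci on each side of each gene, 9 were measured in all, and none passed (limma), while 1.41% of all probe sets did. Their log2 differences for the mean of both alleles ran from -0.29 to 0.04. On the sides of AT5G03350, AT5G03345 was at -0.04 and AT5G03360 at -0.04. Beside AT3G16530 the glycosyltransferase gene UGT88A1 was at -0.25 (limma adjusted p = 0.437), and beside AT5G18470 the 3 measured loci AT5G18450, AT5G18460 and AT5G18475 were at -0.28, -0.24 and -0.29. The measured loci around AT1G11330 were AT1G11320, AT1G11340 and AT1G11360, at 0.04, -0.02 and -0.17.

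Likeness of profiles was measured as the root mean square distance between log2 values over the 6 arrays, each gene centred on its own mean, and is given as a description. Among the 4 genes, AT5G03350 and AT1G11330 were nearest to each other, at 0.21, and AT5G18470 was the most distant, at 0.55 to 0.68 from the others. The distance is not scaled, so it also grows with the range of a gene, which was widest in AT5G18470. Over all named genes, AT1G74440 was nearest to AT5G03350 (0.11), followed by AT3G48080 (0.12) and AT1G13750 (0.17). AT3G48080 has a close copy, EDS1, and whether its probe set tells them apart was not tested. The profile of AT3G16530 was nearest to AT5G48540 (0.12), AT5G44820 (0.14) and AT1G67330 (0.15). Nearest to AT5G18470 were the cytochrome P450 gene CYP71B23 (0.24), AT5G59670 (0.30) and AT2G18690 (0.34), so its nearest distance was the largest of the 4. For AT1G11330 the nearest were AT1G15790 (0.12), AT3G04210 (0.15) and AT1G74440 (0.15). CYP71B23 had log2 values of 4.39 and 4.70 in wild type, 7.75 and 6.62 in camta3-1 and 7.11 and 6.57 in camta3-2, with camta3-1 replicate 1 highest, as in AT5G18470. The order depends on the measure of likeness, since by Pearson correlation over the 6 arrays 1 of the 3 genes was shared for AT5G03350, AT5G18470 and AT1G11330 and 0 of 3 for AT3G16530. By that correlation the nearest gene to AT5G18470 was at 0.997, and those nearest to the other lectin genes described were at 0.996 to 0.997.

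**Figure D4:**
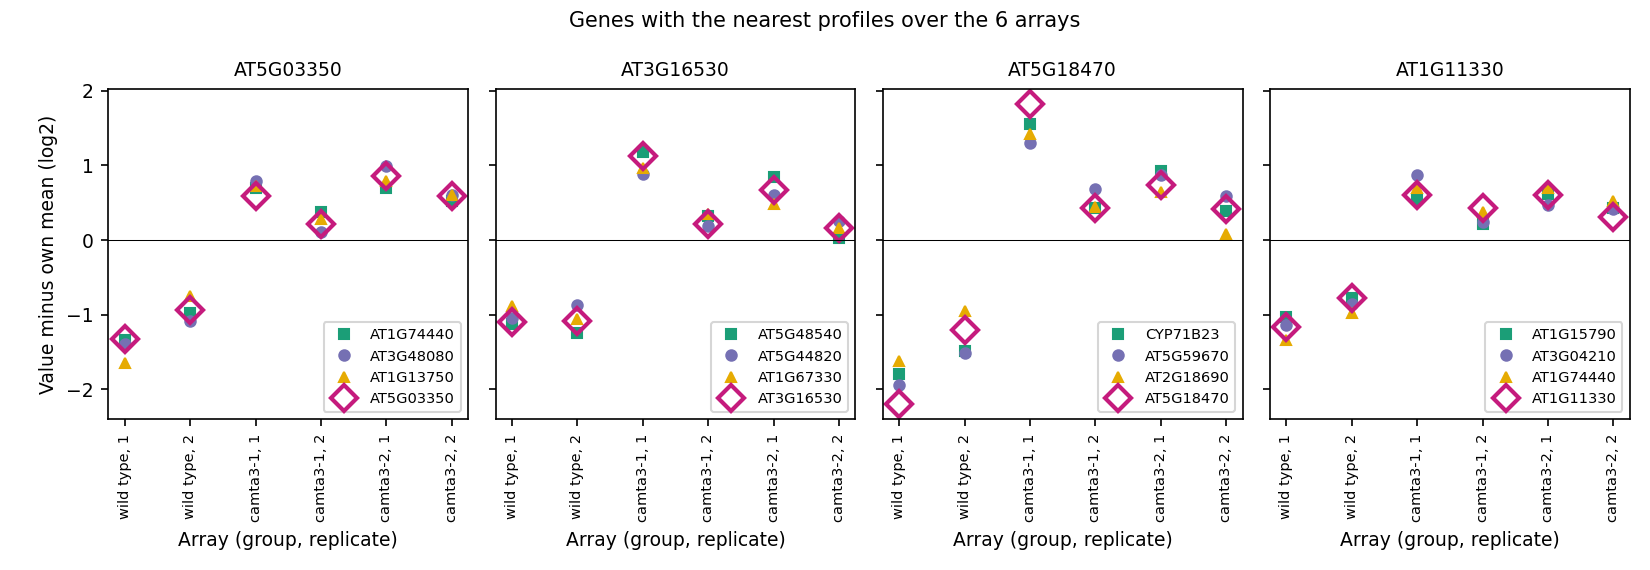
Log2 value minus the gene's own mean (vertical axis) on each array (horizontal axis) for the 4 lectin genes (open diamonds) and the 3 named genes nearest to each (filled symbols). Wild-type arrays lie below 0 and mutant arrays above it for all genes shown, which follows from how the genes were picked. The array of camta3-1 replicate 1 is the highest for AT3G16530, AT5G18470 and, narrowly, AT1G11330.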

How the data were processed

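Each array has a deposited column of log2 values by probe set. Per the submitters' processing notes they come from RMA, a method of background correction, between-array normalization and probe summary, and from Partek, with no version stated. Such processing reduces differences of dim probe sets and takes out shifts common to all transcripts. The number of arrays limits the precision.

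Of 22810 probe sets, 64 controls were left out. In the platform annotation 13513 probe sets had 1 gene, 503 had several and 8730 had none, and 13286 loci were found in the reference gene table (TAIR10.1, names and order only). Where a locus had more than 1 probe set, the brightest was used.

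One mean per group was fitted over all 6 arrays with limma 3.58.1 in R 4.3.3 (3 residual and 4.43 prior degrees of freedom), with Benjamini-Hochberg adjustment over 22746 probe sets and a threshold of 0.05. The fit was tested on simulated data. The alternatives left out each array in turn, fitted 2 groups alone, kept probe sets over the 40th percentile of means (log2 5.33), used cyclic loess or median centring, added the replicate number as a block, or took the prior as trended and robust or not at all. Plots used matplotlib 3.10.9 in Python 3.11.15.

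The members and lists were chosen with earlier results of these data known. The lectin list consists of recalled loci, because the tables used here hold no gene descriptions. Named genes were the 4 members, list genes that passed in any comparison, the 3 of each subgroup with the smallest p, the 3 nearest profiles and the measured loci among 3 on each side. SD1-29, AT4G27290 and the runs of G-type genes were added after their values were seen. Sequences, promoters and their motifs were not analysed here.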

Additional observations from a re-analysis of the deposited data

How the results depend on the processing

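Since no mutant array of the 4 lectin genes overlaps the wild type, leaving out 1 array cannot turn their differences from wild type. Without 1 array, the mean of both alleles ranged over 1.50 to 1.89 for AT5G03350, 1.41 to 1.87 for AT3G16530, 2.06 to 3.05 for AT5G18470 and 1.26 to 1.65 for AT1G11330, AT3G16530 in camta3-1 over 1.30 to 2.22 and AT5G18470 in camta3-1 over 2.14 to 3.53. The difference between the alleles, which passed for none of them under any setting, ranged over 0.13 to 0.52 for AT5G03350, -0.71 to 0.21 for AT3G16530, -1.25 to 0.14 for AT5G18470 and -0.22 to 0.0766 for AT1G11330.

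Counts of called genes were less stable. Of the 58 lectin genes 6 were called for the mean of both alleles, 5 in camta3-1 and 2 in camta3-2, and of the 54 other lectin genes 2, 1 and 0. Over all probe sets the calls were 320 (1.41%), 246 (1.08%) and 167 (0.734%). In the unmoderated test all these counts were 0. Without 1 array they ranged over 0 to 7, 0 to 7 and 0 to 5 for the 58 genes, and 0 to 3, 0 to 3 and 0 to 1 for the 54, while over all probe sets they ranged over 5 to 458, 2 to 333 and 5 to 270. The 58 include the 4 genes picked for their difference. In camta3-1, 2 of the 54 passed with cyclic loess, median centring, the filter, the trended and robust prior or the replicate block. Calls over all probe sets tested were then 260 to 430, against 246. In a fit of camta3-1 and wild type alone 2 of the 58 and 0 of the 54 passed, with 202 calls over all probe sets. In camta3-2 a fit of the 2 groups alone called 5 of the 58 and 1 of the 54, while calls over all probe sets rose from 167 to 270. With the replicate number as a block, 4 of the 58 and 1 of the 54 passed in camta3-2, and the counts over all probe sets rose from 320 to 493, from 246 to 430 and from 167 to 280. The labels do not say that replicate numbers pair the groups. Deviations of same-numbered arrays correlated at 0.402 between the alleles, -0.04 between camta3-1 and wild type and 0.13 between camta3-2 and wild type. The comparison of the recalled list with gene descriptions was not run, because the tables hold none. The causes of these changes were not tested.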
